A study of Homo sapiens with 6 samples.

Results

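The mRNA levels of 8 genes of the BCL2 family were examined in NALM6 cells, a human cell line from B-cell acute lymphocytic leukemia (B-ALL). They encode the BCL2-like survival proteins BCL2, BCL2L1 (BCL-XL), BCL2L2 (BCL-w), MCL1 and BCL2A1 (BFL1) and the effectors BAX, BAK1 and BOK. They were taken as a named list and matched by symbol and Ensembl identifier, and all 8 were found among the 57905 genes of the count table. THZ1 is a covalent inhibitor of CDK7, a kinase that phosphorylates RNA polymerase II. RNA-SEQ libraries were made from cells given 500 nM THZ1 for 24 h and from cells given DMSO, the solvent, for 24 h, with 3 libraries in each group. All libraries came from the single line NALM6, and the labels do not say whether the replicates were separate cultures, so the p-values measure only the spread between these libraries.

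BCL2 family proteins decide whether the outer mitochondrial membrane stays closed. The survival proteins hold the effectors and the BH3-only proteins in a groove on their surface, whereas free BAX or BAK1 oligomerizes and opens pores that release cytochrome c to the apoptosome. Lymphoid cells differ in which survival protein they lean on, and MCL1 stands out because both its mRNA and its protein turn over quickly. RNA-SEQ measures the mRNA of a gene only, and the gene counts do not separate splice forms such as those that give BCL-XL and BCL-XS.

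Total gene counts ranged from 11015480 to 11164840 in DMSO-treated and from 7876402 to 8314306 in THZ1-treated libraries. The share of counts on mitochondrially encoded genes was 4.32% to 4.37% with DMSO and 12.6% to 13.6% with THZ1, and its part in the results was not tested. All 12 precursor B cell markers were detected and tested, 9 being lower, 2 higher and 1 not called (against 41.1% lower and 43.5% higher among all genes tested), and their summed level was 4130 to 4270 CPM (counts scaled to library size) with DMSO and 2190 to 2260 CPM with THZ1. The 5 T cell markers summed to at most 0.969 CPM in any library. The 5 myeloid markers summed to 3.88 to 4.63 CPM with DMSO and to 18.5 to 20.1 CPM with THZ1, with CD14 and CSF1R called higher, LYZ called lower, MPO not called and ITGAM, at 2, 0 and 0 counts and then 4, 13 and 22, not tested, and their part in the results was not tested. Fold changes were computed relative to all genes, and in bulk libraries fewer cells that express a gene cannot be told apart from less of its RNA per cell.

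Of the 8 genes, 6 passed the filter on low counts and were tested. MCL1 and BAX rose most, BCL2 fell most, BCL2L1 rose less, and the changes of BCL2L2 and BAK1 were small and depended on the processing. At an adjusted p-value below 0.05 by edgeR's quasi-likelihood test, 4 were higher with THZ1 (MCL1, BAX, BCL2L1 and BAK1, the last losing its call in 9 of 16 alternatives and turning below 0 with library sizes alone) and 2 were lower (BCL2 and BCL2L2). Among all 16622 genes tested, 84.5% were called, 43.5% higher and 41.1% lower, so being called was common. With a further threshold of 1.5 on the size of the log2 fold change, MCL1 was called higher, as were 24.6% of all genes, and BCL2 was called lower, as were 12.9%. Both lay near this threshold and fell short of it under some other processing. By limma on the deposited log2(FPKM + 1) values, 3 of the 6 were higher, against 35.6% of all genes in that table, and 2 were lower, against 44.2%. The median log2 fold change was 0.34 over the 6 genes and 0.03 over all genes tested. The libraries of the treatments did not overlap for 5 of the 6, the exception being BCL2L2, against 84.7% of all genes tested.

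**Figure D1:**
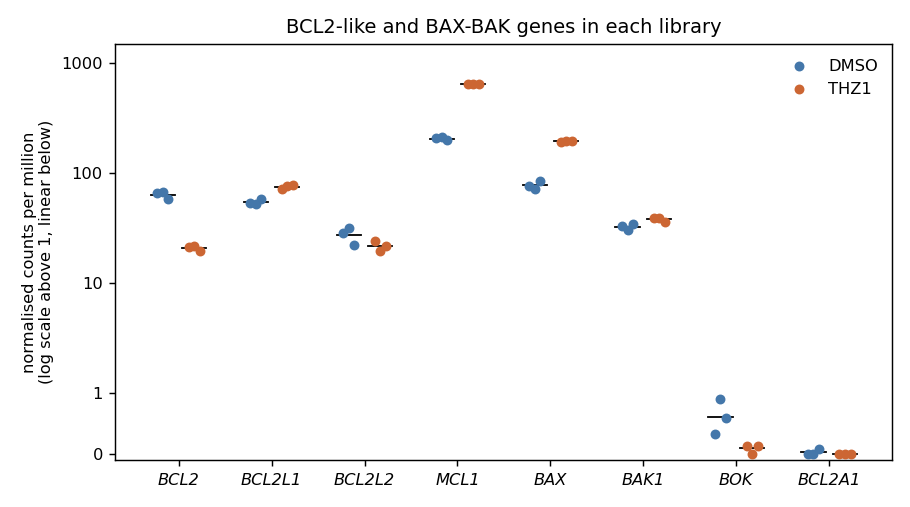
CPM of the 8 genes in each library (points) with the mean of each treatment (bars, n = 3), on an axis that is logarithmic above 1 and linear below. The THZ1-treated libraries of MCL1 and BAX lie above all their DMSO-treated libraries, those of BCL2 lie below, and BOK and BCL2A1 are near 0. Values are not per length, so heights should not be compared between genes.

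Among the survival genes, MCL1 lies on chromosome 1 from 150533371 to 150552214 (GRCh37, minus strand). MCL1 sequesters BAK1 and the BH3-only proteins. Its levels were 209.8, 211 and 198 CPM in the DMSO-treated libraries and 643, 644 and 645 CPM in the THZ1-treated libraries. The treatments were far apart, and the THZ1-treated libraries lay within 3 CPM of each other (mean 206.5 ± 7.07 CPM against 644 ± 1.22 CPM, SD, n = 3 each). Over all genes the THZ1-treated libraries differed by more than sampling noise (chi-square per gene 1.81 to 2.32), so this closeness is not read as precision. The log2 fold change of MCL1 was 1.64 (standard error 0.07, 95% interval 1.51 to 1.78, adjusted p = 2.1e-20 by edgeR), a 3.12-fold increase. This change lay at percentile 76.7 of all genes tested, so more than 1 in 5 genes rose further. Over 16 alternatives the log2 fold change of MCL1 stayed between 1.39 and 1.83 and was called each time.

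BCL2, the survival protein targeted by venetoclax, is encoded on chromosome 18 from 60790579 to 60987361 (minus strand). Its levels were 65.6, 66.8 and 58.1 CPM with DMSO and 21.4, 21.9 and 19.4 CPM with THZ1. Even the lowest DMSO-treated library held more than double the highest THZ1-treated library. BCL2 fell to 0.329 of its DMSO level (log2 fold change −1.60, standard error 0.10, 95% interval −1.81 to −1.40, adjusted p = 1.2e-15 by edgeR). The change lay at percentile 11.3 of all genes tested. The deposited FPKM values gave the furthest fall, with a log2 fold change of −1.94 to −2.20 by limma, and upper quartile scaling of the counts the smallest, −1.41.

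BCL2L1 encodes BCL-XL, which holds both BAX and BAK1 and is found on chromosome 20 from 30252255 to 30311792 (minus strand). Its levels were 53.8, 52.0 and 58.1 CPM with DMSO and 72.5, 76.3 and 77.7 CPM with THZ1. All THZ1-treated libraries were above all DMSO-treated libraries, by a smaller margin than for MCL1. The increase was 1.38-fold (log2 fold change 0.47, 95% interval 0.30 to 0.63, adjusted p = 5.3e-06 by edgeR), close to the middle of all genes at percentile 60.1. In raw counts per library BCL2L1 did not increase (635 to 689 with DMSO and 551 to 581 with THZ1), so its increase appears only after scaling. The scaling took in the smaller THZ1-treated libraries and a further factor per library (1.06 to 1.11 with DMSO and 0.915 to 0.920 with THZ1). With library sizes alone the log2 fold change was 0.22, still called.

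BCL2L2 encodes BCL-w, a survival protein known for its role in male germ cells, and lies on chromosome 14 from 23767999 to 23780960 (plus strand). Its levels were 28.4, 31.7 and 22.4 CPM with DMSO and 24.2, 19.4 and 21.5 CPM with THZ1. The treatments overlapped, since DMSO replicate 3 was lower than THZ1 replicate 1. The log2 fold change was −0.34 (95% interval −0.60 to −0.08, adjusted p = 0.0138 by edgeR). The call was lost without DMSO replicate 2 (−0.25, adjusted p = 0.0589 by edgeR) and without THZ1 replicate 2 (−0.28, adjusted p = 0.0726 by edgeR). It was also lost with upper quartile factors, with DESeq2 and with the stricter filter, and over all 16 alternatives the adjusted p-value ranged from 4.9e-05 to 0.279.

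BCL2A1, an NF-kB target of mature and activated B cells on chromosome 15 from 80253234 to 80263538, had 1 count in DMSO replicate 3 and 0 counts in every other library. The limit that a count of 0 allows, taken as 3 counts, is 0.246 to 0.253 CPM with DMSO and 0.394 to 0.415 CPM with THZ1 and covers counting error only. BCL2A1 was therefore not detectable above this limit in either treatment, and no change is given for it.

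Of the effectors, BAX resides in the cytosol and moves to mitochondria upon activation. The gene lies on chromosome 19 from 49458072 to 49465055 (plus strand). Its levels were 76.5, 71.4 and 84.6 CPM with DMSO and 193, 197 and 196 CPM with THZ1. The lowest THZ1-treated library was more than double the highest DMSO-treated library. BAX rose 2.52-fold (log2 fold change 1.33, standard error 0.07, 95% interval 1.18 to 1.48, adjusted p = 7.5e-17 by edgeR). Among all genes tested, this increase lay at percentile 73.6. BAX was called in all 16 alternatives, with the smallest log2 fold change (1.09) coming from library sizes alone and the highest (1.53) from upper quartile factors.

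BAK1, which sits in the outer mitochondrial membrane already in healthy cells, lies on chromosome 6 from 33540324 to 33548070 (minus strand). Its levels were 33.1, 30.5 and 34.4 CPM with DMSO and 38.9, 39.0 and 36.2 CPM with THZ1. The treatments did not overlap, but the nearest libraries were less than 2 CPM apart. The log2 fold change of BAK1 was 0.22 (95% interval 0.02 to 0.42, adjusted p = 0.0358 by edgeR), but −0.026 with library sizes alone. The call was lost without DMSO replicate 1, DMSO replicate 2, THZ1 replicate 1 or THZ1 replicate 2, with adjusted p-values of 0.101, 0.161, 0.109 and 0.117 by edgeR. Over all 16 alternatives the log2 fold change of BAK1 ranged from −0.026 to 0.41.

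BOK, an effector that needs no BH3-only activator and is kept low by degradation of its protein, lies on chromosome 2 from 242490839 to 242513546 (plus strand). It had 4, 11 and 7 counts with DMSO and 1, 0 and 1 counts with THZ1. All DMSO-treated libraries lay above all THZ1-treated libraries, at levels that did not pass the filter. Per effective library size, the summed THZ1 counts were 0.147 of the DMSO counts (exact 95% interval 0.0168 to 0.598, which covers counting error only). With no filter, edgeR estimated −2.68 for BOK on the log2 scale (standard error 0.99, adjusted p = 0.0131), a value that depends on the prior count.

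**Figure D2:**
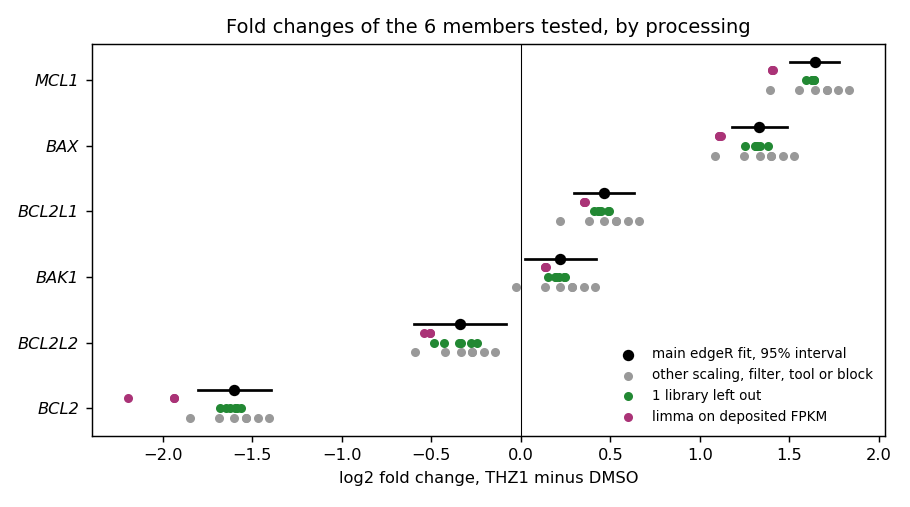
Log2 fold changes (THZ1 minus DMSO) of the 6 genes tested, with the edgeR fit and its 95% interval in black, fits without 1 library in green, other scalings, filters, tools and the replicate block in grey, and limma on the deposited FPKM values in purple. MCL1, BAX, BCL2L1 and BCL2 keep their side of 0 in all fits, and BAK1 crosses it with library sizes alone (−0.026).

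Levels were compared between genes on the authors' FPKM values, which are scaled to library size and transcript length. BOK and BCL2A1 have no FPKM value in that table. With DMSO the order was MCL1 (136 ± 11.9 FPKM), BAX (84.6 ± 4.36), BCL2L1 (45.7 ± 1.95), BAK1 (40.9 ± 2.04), BCL2L2 (18.6 ± 2.82) and BCL2 (15.5 ± 0.905), as mean ± SD over 3 libraries. BCL2L2 and BCL2 overlapped, at 15.6 to 21.1 and 14.5 to 16.1 FPKM, and no other neighbours in the order did. With THZ1 the order was the same, from MCL1 (361 ± 3.44 FPKM), BAX (184 ± 2.57), BCL2L1 (58.5 ± 1.78), BAK1 (45.0 ± 1.57) and BCL2L2 (12.8 ± 1.58) down to BCL2 (3.30 ± 0.222), and no neighbours overlapped. The order depends on the scale. On counts per kilobase of the main transcript MCL1 was below BAX, at 0.472 to 0.596 of its level with DMSO and 0.660 to 0.670 with THZ1. On that scale BCL2 was above BCL2L2 within each DMSO-treated library (10.4%, 10.5% and 9.63% against 8.78%, 9.73% and 7.24% of the survival mRNA). It was below BCL2L2 within each THZ1-treated library (1.55%, 1.58% and 1.39% against 3.42%, 2.73% and 3.01%).

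Ratios within a library do not depend on a scaling factor between libraries and are given as a description. The sorted FPKM values were nearly equal within a treatment, so a step beyond such a factor may have been applied, and counts per kilobase are given as a second scale. MCL1 made up 61.2% to 64.3% of the summed FPKM of the 4 survival genes with DMSO and 82.7% to 83.0% with THZ1. The share of BCL2 went from 7.08% to 7.25% with DMSO down to 0.695% to 0.800% with THZ1, and on counts per kilobase from 9.63% to 10.5% down to 1.39% to 1.58%. BCL2L1 held 19.4% to 23.8% and then 12.9% to 13.7%, although its own level was higher with THZ1, and BCL2L2 held 7.75% to 9.29% and then 2.60% to 3.28%. The ratio of MCL1 to BCL2 was 8.51 to 9.07 with DMSO and 104 to 119 with THZ1, and that of BAX to BCL2 was 4.99 to 6.16 and 52.8 to 60.5. On counts per kilobase of the main transcript, the ratio of MCL1 to BCL2 was 5.51 to 5.95 and 51.3 to 58.0, and that of BAX to BCL2 was 9.25 to 12.6 and 77.8 to 87.5. Among the effectors, BAX held 67.1% to 67.6% of the summed BAX and BAK1 FPKM with DMSO and 79.7% to 81.0% with THZ1, or 86.3% to 87.0% and 93.1% to 93.7% of their counts per kilobase.

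The summed survival mRNA and the summed effector mRNA were both higher with THZ1, so their ratio moved little. The survival genes summed to 200.8 to 227 FPKM with DMSO and 431 to 438 FPKM with THZ1, and BAX and BAK1 summed to 119 to 132 and 227 to 231 FPKM. The ratio of survival to effector mRNA was 1.75, 1.91 and 1.52 in the DMSO-treated and 1.93, 1.86 and 1.93 in the THZ1-treated libraries, and these ranges overlapped. On counts per kilobase of the main transcript this ratio was 0.716 to 0.890 with DMSO and 0.759 to 0.770 with THZ1, again overlapping. The level of that ratio depends on the length assigned to BAX, and the treatments overlapped on both scales, so neither its level nor a direction of change is read from it. On that second scale MCL1 held 57.3% to 58.0% of the survival mRNA with DMSO and 80.7% to 81.0% with THZ1.

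**Figure D3:**
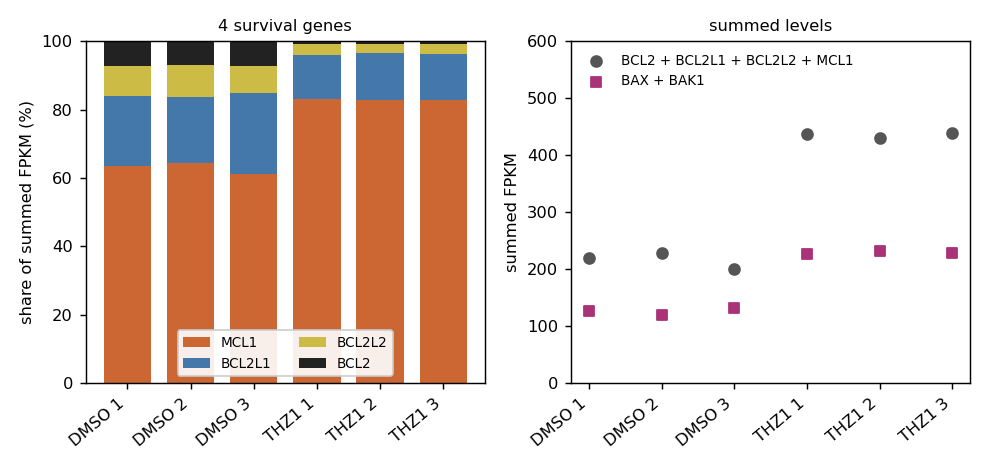
Left, share of the summed FPKM of BCL2, BCL2L1, BCL2L2 and MCL1 held by each gene in each library, where MCL1 goes from 61.2% to 64.3% with DMSO to 82.7% to 83.0% with THZ1. Right, summed FPKM of these 4 survival genes (circles) and of BAX and BAK1 (squares) in each library, both higher in all THZ1-treated libraries.

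The gene models gave a further description. The members tested differ in size, taken as the whole annotated gene with all its transcript models. BCL2 spans 196783 bases, longer than 93.8% of the 11859 protein-coding genes tested that have an annotated 3′ UTR. BCL2L1 spans 59538 bases, MCL1 18844, BCL2L2 12962, BAK1 7747 and BAX 6984, a size that 13.2% of those genes fall below. The main transcript of MCL1 covers only 150547034 to 150552086 and that of BAX 49458132 to 49465055, so MCL1 is shorter than BAX by that measure. A relation of size to the changes was not tested. ATTTA, the core of AU-rich elements that mark mRNAs for decay, was counted in the 3′ UTR of the main transcript, on the sense strand and with overlaps allowed. BCL2 holds 13 in 5279 bases and MCL1 holds 10 in 2817 bases, whereas BAX (162 bases) and BAK1 (1251 bases) hold 0. The median over the same 11859 genes was 2, and 13.9% had at least 10. BCL2L1 holds 3 in 1491 bases and BCL2L2 holds 5 in 2786 bases. The count follows the length of the 3′ UTR, and per kilobase BCL2 holds 2.46, more than 65.6% of those genes, and MCL1 holds 3.55, more than 80.6%. The nonamer TTATTTATT was found once in BCL2 and not in the other members, and 8.89% of the 11859 genes have it. The site in BCL2 (GRCh37, chr18:60795588-60795612, minus strand) and the 30 bases of the MCL1 3′ UTR with the most ATTTA (chr1:150548692-150548721, minus strand) are shown 5′ to 3′ to set these motifs side by side, with the nonamer in capitals for BCL2 and ATTTA in capitals for MCL1.
BCL2: aaaaagatTTATTTATTtaagacag
MCL1: acctaATTTAactggtgaaATTTAaagtga

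Promoter sequences were taken from RefSeq (table on GRCh38.p14), which had entries for 6 of the 8 genes, without MCL1 and BCL2L2. The 250 bases before the start were searched on both strands for CACGTG (the E-box bound by MYC and USF proteins), GGGCGG (GC box), CCAAT and TATAAA. The BAX and BAK1 windows differ in these motifs, and a relation of the motifs to the changes was not tested. The BAX window holds CACGTG 4 times, at 138, 93, 45 and 14 bases before the start, while the BAK1, BCL2, BCL2L1, BOK and BCL2A1 windows hold it 0 times. Of all 35116 promoter windows of that length, 6.34% hold CACGTG at least once and 0.0797% at least 3 times. The BAX window also holds 2 CCAAT motifs and 1 GC box, and the BAK1 window 1 CCAAT and 2 GC boxes. The BCL2 window holds none of the 4 motifs. A match is a description of the sequence and not evidence of binding. The BAX window is shown because it holds this cluster, with CACGTG in capitals, and it matched GRCh37 exactly at chr19:49457882-49458131 (plus strand).
BAX: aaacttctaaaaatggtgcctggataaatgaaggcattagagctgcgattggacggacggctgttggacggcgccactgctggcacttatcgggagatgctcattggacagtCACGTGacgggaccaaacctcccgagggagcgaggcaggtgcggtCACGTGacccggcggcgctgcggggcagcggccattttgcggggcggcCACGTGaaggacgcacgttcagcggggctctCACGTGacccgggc

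The genes that act with the family were counted from lists written from general knowledge. BH3-only proteins relay stress to the family, and of the 8 measured 5 rose (BBC3, BMF, PMAIP1, HRK and BAD), 2 fell (BID and BIK) and BCL2L11 was not called, against 43.5% higher and 41.1% lower among all genes tested. Their median log2 fold change was 1.01, against 0.03 over all genes, and 0.76 to 1.20 under the other scalings. BCL2L11 was also called lower with library sizes alone. BBC3 (PUMA), which binds all survival proteins, went from 4.04 ± 0.335 CPM to 140 ± 2.99 CPM, the furthest increase of the list (5.11 on the log2 scale, adjusted p = 1.2e-27 by edgeR). BID, which links death receptors to BAX and BAK1 once it is cleaved, went from 59.0 ± 6.27 CPM to 18.9 ± 1.88 CPM, the furthest decrease (−1.64 on the log2 scale, adjusted p = 4.0e-15 by edgeR).

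The VDAC porins form the main channels of the outer mitochondrial membrane, and VDAC2 recruits BAK1 and BAX to it. VDAC2 was highest of the 3, with a log2 fold change of 0.93 (150 ± 10.6 CPM to 284 ± 12.2 CPM), and VDAC3 lowest, with −0.93 (122 ± 2.58 CPM to 63.9 ± 5.64 CPM). VDAC1 was called higher at 0.22 but was at −0.023 and not called with library sizes alone. Of the 5 other BCL2-fold genes, 3 were tested, and 1, BCL2L15, was called higher with a log2 fold change of 0.99, from 1.16 ± 0.299 CPM to 2.32 ± 0.731 CPM. With library sizes alone, 0 of these 3 were higher and 2 were lower. BCL2L13, the lowest of them at −0.09, and BCL2L12 were not called with the scaling used here, and BCL2L10 and BCL2L14 had at most 5 counts in any library.

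MCL1 protein is removed by ubiquitin ligases and spared by deubiquitinases, and of the 7 genes listed 3 were higher and 4 lower, shares near those of all genes tested (43.5% and 41.1%). Their median was −0.21, but −0.013 with upper quartile factors, where USP9X was not called, and −0.46 with library sizes alone, where MARCHF5 was not called. HUWE1 (MULE), a ligase of MCL1, was lower with a log2 fold change of −0.72, and the deubiquitinase USP13 was the lowest, −0.89 (64.5 ± 7.25 CPM to 34.9 ± 1.26 CPM). TRIM17 was the highest, 3.21, but held 0.635 ± 0.164 CPM with DMSO and 6.01 ± 0.733 CPM with THZ1. Downstream of the pores, 5 of the 8 genes of the apoptosome and its inhibitors were lower and 3 higher, against 41.1% and 43.5% of all genes tested. Their median was −0.51, but −0.32 with upper quartile factors and −0.76 with library sizes alone, where APAF1 was not called. CASP9, the initiator caspase of the apoptosome, was the lowest at −1.07 (14.8 ± 2.21 CPM to 7.03 ± 0.518 CPM). DIABLO, whose product frees caspases from XIAP, was the highest at 3.62 (2.82 ± 0.517 CPM to 34.9 ± 2.46 CPM).

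**Figure D4:**
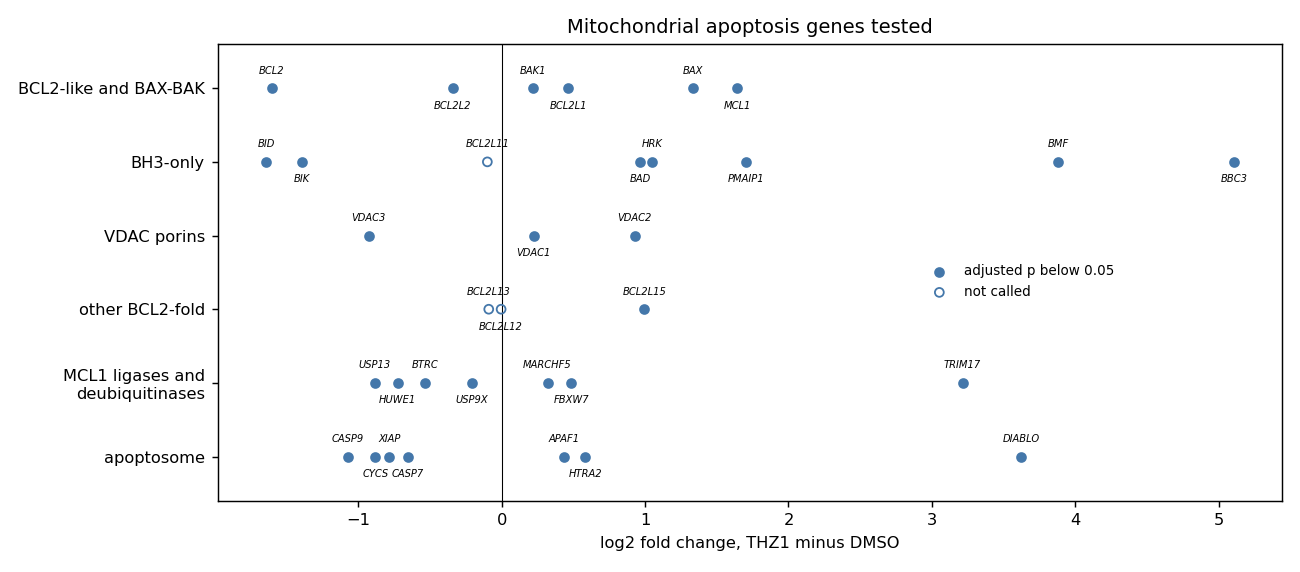
Log2 fold changes (THZ1 minus DMSO) of the genes tested in the BCL2-like and BAX-BAK family and in 5 lists of genes that act with it (1 apoptosome gene is not drawn), each point a gene, filled where the adjusted p-value by edgeR was below 0.05. BBC3 and BMF lie farthest to the right and BID farthest to the left, and BAK1 and VDAC1 turn below 0 with library sizes alone (−0.026 and −0.023).

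By the distance of their log2 CPM over the 6 libraries, centred on the DMSO mean, the 3 protein-coding genes most like MCL1 among 8971 with at least 10 CPM were RNF26, SOX4 and KHSRP (distances 0.0640, 0.0826 and 0.0876). Those most like BCL2 were EXO1, NUP210 and KNL1 (0.0832, 0.0929 and 0.107). With only 2 treatments, this measure turns on the fold change and the spread.

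The counting is not stated to use strand, so overlapping genes could affect the counts of the members. ABALON overlaps 1735 exonic bases of BCL2L1, and PPP1R3E overlaps 315 and HOMEZ 149 exonic bases of BCL2L2, each on the opposite strand. The Ensembl identifiers used for ABALON and HOMEZ were not among the genes counted. On the same strand the read-through gene BCL2L2-PABPN1 overlaps BCL2L2, and it held 3, 3 and 0 counts with DMSO and 8, 15 and 10 with THZ1. GGNBP1 overlaps BAK1 by 91 exonic bases on the opposite strand, with at most 10 counts in any library. No annotated gene overlaps BAX.

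Genes annotated past the 3′ ends of MCL1 and BAX showed signal with THZ1. The window of 20 kb and the genes in it were chosen after their values were seen. Among genes that lie wholly past the 3′ end of another member and begin within this window, none had such a gain from near 0. BCL2 and BAK1 had no counted gene there, so no gain could be seen for them. BCL2L2-PABPN1, which overlaps BCL2L2, was left out of this search and had 3, 3 and 0 counts with DMSO and 8, 15 and 10 with THZ1. Past BCL2L1, COX4I2 had 0 counts with DMSO and 2, 0 and 0 with THZ1. Past BOK, ENSG00000273113 had 2, 0 and 0 and then 2, 3 and 2, and RNA5SP122 had 3, 3 and 4 and then 7, 1 and 2. THAP4, also past BOK, was abundant under both treatments, with a log2 fold change of 0.56. ENSG00000259770, past BCL2A1, had 0 counts throughout. Past MCL1, RN7SL600P and RN7SL473P, copies of the 7SL RNA gene on the same strand, had 0 counts in all DMSO-treated libraries and 55 to 71 counts in the THZ1-treated libraries. ADAMTSL4-AS1, next on that strand, had 0, 0 and 1 counts and then 48, 55 and 74. ADAMTSL4, on the opposite strand from 13621 to 25189 bases past the end, had 6, 4 and 5 counts with DMSO and 300, 305 and 318 with THZ1. ADAMTSL4-AS2, farther along on the MCL1 strand, had 2, 3 and 1 counts and then 74, 110 and 70. Reads of 7SL copies may come from other copies, and the longest model of MCL1 reaches into this region.

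Summed, RN7SL600P, RN7SL473P, ADAMTSL4-AS1 and ADAMTSL4, the 4 that overlap the longest MCL1 model, held 0.155% to 0.255% of the MCL1 counts in the DMSO-treated libraries and 9.65% to 10.7% in the THZ1-treated libraries. Most of this sum came from ADAMTSL4, which is on the opposite strand and shares only 43 exonic bases with MCL1. It held 300, 305 and 318 of the 472, 484 and 518 summed counts in the THZ1-treated libraries. The MCL1 counts themselves rose from 2351 to 2579 up to 4655 to 4889. Past BAX, ENSG00000267898, a non-coding gene on the same strand that starts 2177 bases beyond the end, had 7, 0 and 8 counts with DMSO and 575, 606 and 628 with THZ1. FTL, the ferritin light chain gene that follows it on this strand, rose with a log2 fold change of 1.24 and was abundant under both treatments. Among all genes tested, 6.93% were at or under 3 counts in every DMSO-treated library and above 3 in every THZ1-treated library.

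**Figure D5:**
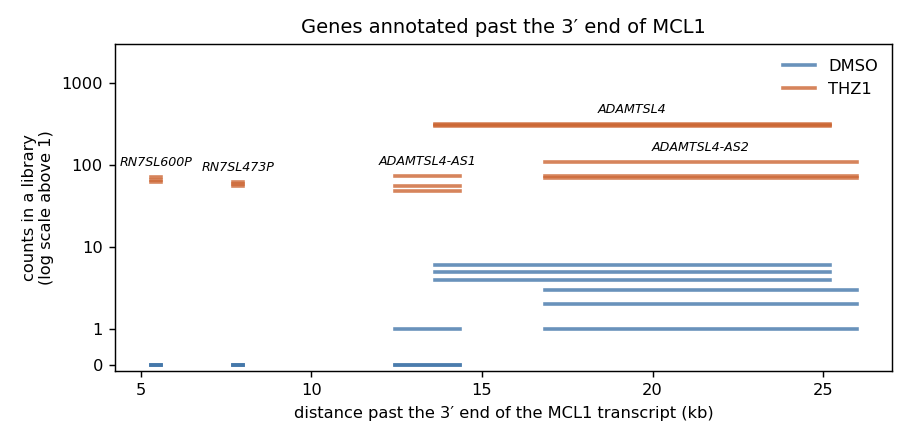
Counts in each library (horizontal lines, blue for DMSO and orange for THZ1) of the genes annotated within 20 kb past the 3′ end of the main MCL1 transcript, drawn over the distance each spans in kb, on an axis that is logarithmic above 1. Each gene has 48 or more counts in all THZ1-treated libraries and at most 6 in any DMSO-treated library.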

How the data were processed

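Total RNA of NALM6 cells was isolated with TRIzol and sequenced. The authors filtered the reads (the submitters' processing notes also list cutadapt), mapped them to GRCh37 with STAR and deposited raw counts per gene from htseq-count, and they deposited FPKM values calculated by RSEM for 16730 genes, on a log2 scale. The annotation and the strand setting are not given in the sources used here. The log2 values were read as log2(FPKM + 1), and the sorted values of 2 libraries differed by a median of at most 0.0017 within a treatment against 0.087 or more between treatments, a step that the methods do not describe. The authors' own fold changes, p-values and FDR values in that table were not used.

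Counts were filtered with filterByExpr (minimum count 10, minimum total 15), scaled by TMM and tested with edgeR's quasi-likelihood test, two-sided, the p-values being adjusted over 16622 genes by Benjamini and Hochberg. Standard errors were derived from the fold change and the F statistic, and CPM values use the effective library sizes. Alternatives were other scaling (RLE, upper quartile, library sizes alone), DESeq2, other filters (10 counts required in all libraries, or none), the replicate number as a block, leaving out each library, a log2 fold threshold of 1.5, and limma on FPKM (pseudocount 1 or 0.1, mean FPKM from 0.1 or from 1). The listed genes were also refitted under each scaling, a choice made after seeing the data. Replicate libraries differed by more than sampling noise (chi-square per gene 1.81 to 9.35). Gene models and symbols are from GENCODE 44 mapped to GRCh37. The main transcript of a gene is the one tagged as canonical or principal, or the longest coding one. The genes named are the 8 members, the extremes of each list, the 3 genes most like BCL2 and MCL1, and overlapping genes. The others named in the lists were chosen after their values were seen. Values of some listed genes are not reported here. The members and lists were chosen with earlier results of these data known. The pipeline was tested on simulated counts. R 4.3.3, edgeR 4.0.16, limma 3.58.1, DESeq2 1.42.0, Python 3.11.15 and matplotlib 3.10.9 were used.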

Additional observations from a re-analysis of the deposited data

How the results depend on the processing

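Of the 6 members tested, MCL1, BAX, BCL2L1 and BCL2 kept their direction and their call (adjusted p-value below 0.05) in all 16 alternatives. BCL2L2 kept its direction in all and lost its call in 5, with log2 fold changes of −0.15 with upper quartile factors, −0.27 with DESeq2 and −0.21 with 10 counts required in all libraries, and −0.49 to −0.25 with each library left out. The members called lower were then 1 under each of these 3 fits, and 1 to 2 with each library left out. BAK1 turned to −0.026 with library sizes alone. It lost its call with no filter (0.13), with each limma fit on FPKM (0.14, 0.14 and 0.14) and in 4 fits without 1 library (0.15 to 0.24 over all such fits). The limma fits used FPKM values whose sorted values were nearly equal within a treatment, so their p-values may understate the spread between replicates. Past the fold threshold of 1.5, 1 member was higher and 1 lower, as were 4088 and 2142 of all genes. MCL1 fell short of that threshold with library sizes alone (1.39) and by limma (1.40 to 1.41). BCL2 fell short of it with upper quartile factors (−1.41) and the stricter filter (−1.47), while BAX passed it with upper quartile factors (1.53). Compared with TMM, the median of all genes moved by 0.19 on the log2 scale with upper quartile factors, by 0.13 with the stricter filter, by −0.25 with library sizes alone and by −0.26 to −0.31 in the FPKM fits. Same-numbered libraries did not deviate together (correlations −0.0040, 0.00097 and 0.021). With the replicate block the log2 fold changes were 1.64 for MCL1, −1.60 for BCL2, 1.34 for BAX, 0.47 for BCL2L1, −0.33 for BCL2L2 and 0.22 for BAK1, and no call of a member changed. Low counts limit BOK and BCL2A1.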

Other observations

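BCL2L1-AS1, on the opposite strand within BCL2L1 and sharing 0 exonic bases with it, had 3, 0 and 0 counts with DMSO and 22, 10 and 16 counts with THZ1. PPP1R3E, which overlaps BCL2L2 on the opposite strand, had 161 to 196 counts with DMSO and 186 to 209 with THZ1, a log2 fold change of 0.86, while BCL2L2 itself had −0.34. PABPN1, 9706 bases past the 3′ end of BCL2L2 on the same strand, rose by 1.08 on the log2 scale (adjusted p = 1.1e-13 by edgeR). GYS1, 6332 bases past the end of BAX on the opposite strand, was lower, by −0.38 on the log2 scale (edgeR, adjusted p = 0.00051), next to BAX and FTL, which were both higher.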
